A study of Mus musculus with 2 samples.

Results

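The trefoil factors Tff1, Tff2 and Tff3 and the gastrokines Gkn1, Gkn2 and Gkn3 were followed through the single droplets of mouse esophageal and stomach organoids. These 6 genes, of 32285 in the count matrix, were chosen by name as secreted products of gastric and intestinal mucous cells, with earlier values of these data in view. Droplet-based single-cell RNA sequencing counted their transcripts as unique molecular identifiers (UMIs). Organoids were grown without further treatment from epithelial stem cells of mouse esophagus and of mouse stomach corpus, and cells of 3 mice were combined for each tissue, so each tissue was 1 sample. The stomach medium contained WNT3A and R-spondin1 conditioned medium and gastrin, and the esophageal medium contained forskolin, so tissue and medium differed together.

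Cells of each tissue were marked with a MULTI-seq sample tag, a short DNA barcode anchored in the membrane, and both tissues were then run together. The esophageal tag BC8 and the stomach tag BC11 are shown because their counts decide the tissue to which each droplet below was given.
BC8: CGAGATTC
BC11: TTAGCCAG
The deposited demultiplexing gave 919 cell barcodes with 23778678 UMIs to the esophageal tag and 180 with 8047185 UMIs to the stomach tag, and 0 of 1099 were listed under both. Depth ran from 540 to 196120 UMIs per droplet under the esophageal tag (median 13608) and from 540 to 324846 under the stomach tag (median 13036). No limit on genes, UMIs or mitochondrial share was set. With 1 sample per tissue no test across samples was possible, and intervals are exact 95% intervals that cover counting error only.

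Trefoil factors are small, protease-resistant peptides that are secreted with mucins and protect and repair the mucosal surface. In the mouse stomach, surface pit cells make Tff1, Gkn1 and Gkn2, mucous neck cells make Tff2 and Gkn3, and Tff3 belongs mainly to goblet cells of the intestine. Stratified squamous epithelium of the esophagus is not among their main sources.

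Each droplet was given a lineage from its keratins before the members were read. Krt5, Krt14, Krt6a and Krt13 are keratins of stratified epithelium, and Krt8 and Krt18 are keratins of simple columnar epithelium. A droplet was called squamous where the first 4 made up 0.75 or more of the UMIs of all 6, columnar where they made up 0.25 or less, and hybrid otherwise. Below 5 such UMIs it had no call. Under the esophageal tag 832 droplets were squamous, 45 hybrid, 33 columnar and 9 without a call, and under the stomach tag 100 were columnar, 35 hybrid, 35 squamous and 10 without a call. The tags did not separate these classes equally well. In the 832 squamous esophageal-tag droplets the median counts were 228 for BC8 and 41 for BC11, and in the 100 columnar stomach-tag droplets they were 44 and 207.5. In the 33 columnar esophageal-tag droplets they were 74 and 51, and in 23 of these neither tag reached 2 times the other, against 104 of 832 and 0 of 100 in the other classes. The lowest BC8 count of any esophageal-tag class was 62 and the highest of any stomach-tag class was 64. The BC11 counts of columnar esophageal-tag droplets ended at 114, below the 128 at which those of columnar stomach-tag droplets began. The paper reports organoid cells with a wrong sample barcode and proposes reclassification of negative cells as a possible reason. It excluded such cells and mixed ones, judged by the same columnar and squamous keratins. Whether the 33 droplets were among them was not tested. How the columnar droplets of the esophageal tag came by that tag was not tested either, and results that rest on them are given with and without them.

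Expression of the 6 genes lay in a few droplets. Over both tags the matrix held 5242 UMIs of Tff1, 738 of Tff2, 6 of Tff3, 171 of Gkn1, 129 of Gkn2 and 7762 of Gkn3. At least 50% of the UMIs lay in 3 droplets for Tff1, in 1 for Tff2, in 2 each for Gkn1 and Gkn2 and in 3 for Gkn3. A droplet was called rich in a gene with at least 10 of its UMIs, which 16 droplets reached for Tff1, 6 for Tff2, 0 for Tff3, 2 for Gkn1, 1 for Gkn2 and 40 for Gkn3. Just inside this limit lay droplets with 11 Tff1 and 10 Gkn3 UMIs, and just outside it droplets with 9 and 8. Rich droplets held 85.7% of the Tff1, 82.7% of the Tff2 UMIs and 7374 of the 7762 Gkn3 UMIs. In all, 53 droplets were rich in at least 1 member, 23 of the esophageal and 30 of the stomach tag, and 41 of the 53 (77.4%, 63.8 to 87.7) were columnar by their keratins.

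**Figure D1:**
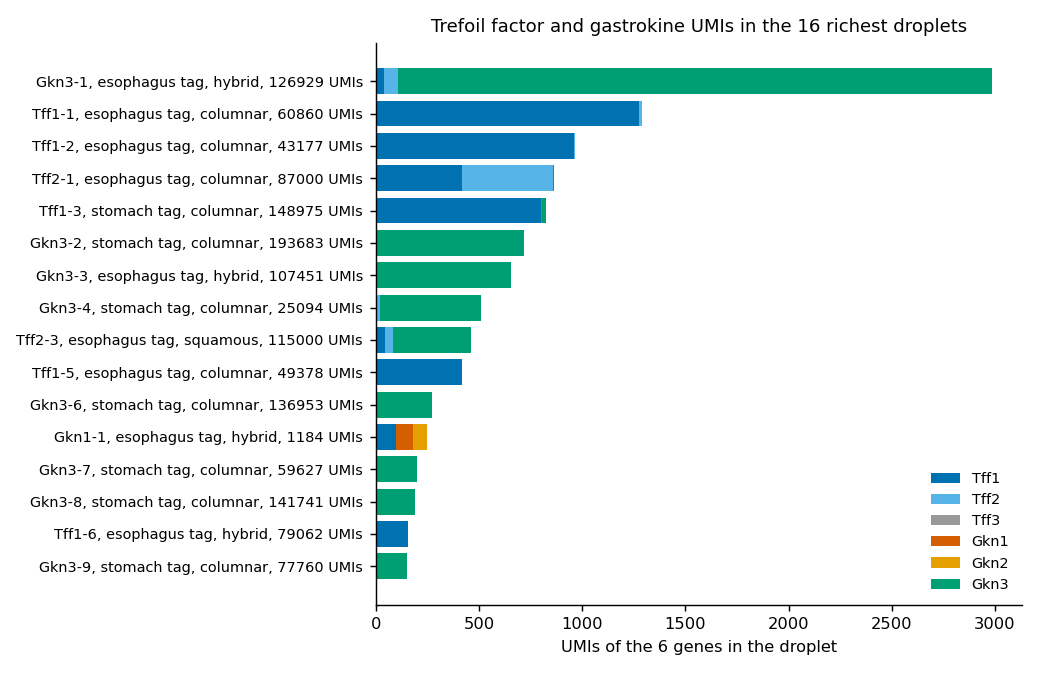
UMIs of each of the 6 genes (stacked, linear axis) in the 16 droplets that held most of them, each labelled with its name, sample tag, keratin call and total UMIs. Bars are mostly a single colour: Tff1 fills 5 of them almost alone, Gkn3 makes up most of 9, and Gkn1 and Gkn2 are visible in 1 shallow droplet.

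Summed over a tag, 4 of the 5 members with enough UMIs were higher under the esophageal tag. Tff1 stood at 117 CPM (counts per 1000000 UMIs) under the stomach tag and at 181 under the esophageal tag, 1.55 times higher there (1.44 to 1.67). Tff2 stood at 6.46 and 28.8 CPM, 4.46 times higher under the esophageal tag (3.37 to 6.04). Gkn1 stood at 2.49 and 6.35 CPM (2.56 times higher, 1.60 to 4.30), and Gkn2 at 2.11 and 4.71 (2.23 times, 1.33 to 3.96). Gkn3 had the opposite order, with 416 CPM under the stomach tag and 186 under the esophageal tag, 2.24 times higher in the stomach (2.14 to 2.34). Thus 3 of 5 members were at least 2 times higher under the esophageal tag, where 15.1% of all genes with at least 10 UMIs were, and 1 under the stomach tag, where 14.2% were. Because the members were chosen from these values, nothing is read from this count. Krt8 and Krt18 together were 7.26 times higher under the stomach tag, so the order of the tags for Tff1, Tff2, Gkn1 and Gkn2 was the reverse of that of the columnar keratins.

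The order rested on which droplets were counted. Between the 100 columnar stomach-tag and the 832 squamous esophageal-tag droplets, Tff1 was 3.55 times higher in the stomach (3.21 to 3.93) and Gkn3 15.2 times (14.0 to 16.7), against 35.3 times for Krt8 with Krt18. In this contrast 16.6% of 13321 genes differed by 2 times or more in that direction. Tff2 (0.825, 0.575 to 1.16), Gkn1 (0.870, 0.463 to 1.55) and Gkn2 (0.965, 0.438 to 1.97) had ratios whose intervals included 1. The higher Tff1 level of the stomach rested on 1 droplet. Among droplets not rich in it Tff1 stood at 10.1 CPM in the columnar stomach-tag and 26.3 CPM in the squamous esophageal-tag droplets, and Gkn3 at 23.4 and 8.83 CPM. The classes differed in depth, and counted per droplet the averages were 0.788 and 0.673 UMIs for Tff1 and 1.63 and 0.226 for Gkn3. The CPM order of Tff1 is thus not an order of counts per droplet. Without its highest stomach-tag droplet, the log2 ratio of stomach over esophagus over all droplets moved for Tff1 from -0.63 to -3.37, and without its highest esophageal-tag droplet it was -0.13. For Tff2 the ratio moved from -2.16 to -0.67, and for Gkn3 from 1.16 to 2.68, without the highest esophageal-tag droplet.

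**Figure D2:**
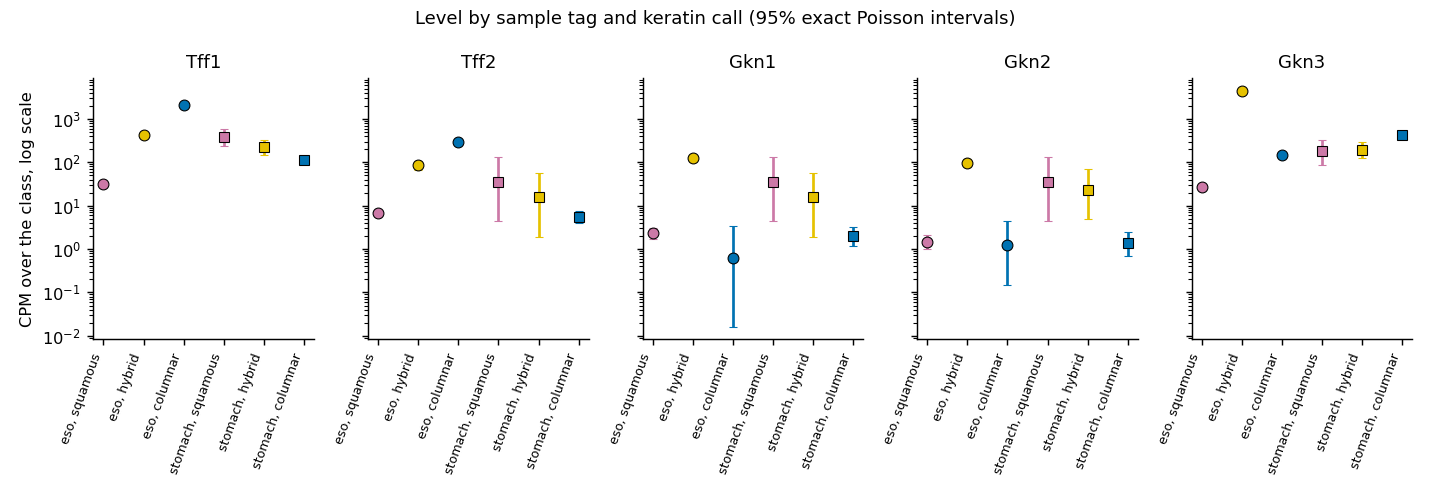
CPM of 5 members (log axis) in droplets grouped by sample tag (circles esophageal, squares stomach) and keratin call (colour), with exact 95% Poisson intervals for counting error. Tff1 and Tff2 were highest in columnar droplets of the esophageal tag (2038 and 294 CPM), while Gkn1, Gkn2 and Gkn3 were highest in hybrid droplets of that tag (123, 97.3 and 4417 CPM).

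Tff1, the pit cell peptide that pairs with gastrokine 2, was found mainly in 5 deep columnar droplets, 4 of them under the esophageal tag. Droplets are named here by the member for which they ranked highest and that rank. Tff1-1 held 1275 Tff1 UMIs of 60860 in all, with 106 BC8 and 50 BC11 counts. Tff1-2 held 960 of 43177, with 75 and 53. Tff1-3, the single Tff1-rich droplet of the stomach tag, held 801 of 148975, with 45 BC8 and 131 BC11 counts. Tff2-1 held 418 Tff1 UMIs of 87000 with tag counts of 71 and 85, and Tff1-5 held 416 of 49378 with 74 and 36. Their columnar keratins were clear, with 328, 323, 671, 222 and 390 UMIs of Krt8 and Krt18 in this order, against 16, 10, 18, 10 and 24 of the 4 squamous keratins. These 5 thus carried little squamous keratin whatever their tag. Their Tff1 levels were 20950, 22234, 5377, 4805 and 8425 CPM.

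Over the 8 columnar esophageal-tag droplets rich in Tff1, the gene ranged from 24 to 1275 UMIs (median 244). Together they held 62.2% of the Tff1 UMIs of the series, and the single stomach-tag droplet held 15.3%. Their BC8 counts ran from 67 to 106 and their BC11 counts from 33 to 85, and in 5 of the 8 neither tag reached 2 times the other. Over all genes, droplets with neither tag at 2 times the other held 5.38% of the UMIs, but they held 32.4% of those of Tff1, 64.0% of those of Tff2 and 2.62% of those of Gkn3. With these droplets left out and the rest assigned by the larger tag, the log2 ratio of stomach over esophagus was -0.02 for Tff1 and -0.59 for Tff2. A further 4 Tff1-rich droplets were hybrid (22 to 158 UMIs) and 3 were squamous (11 to 61 UMIs). Among columnar droplets, Tff1 was 18.2 times higher under the esophageal than under the stomach tag (16.9 to 19.6), at 2038 against 112 CPM, while Krt8 with Krt18 was 1.36 times higher. The 112 CPM of the stomach tag rested on a single droplet, which held 801 of 879 UMIs.

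**Figure D3:**
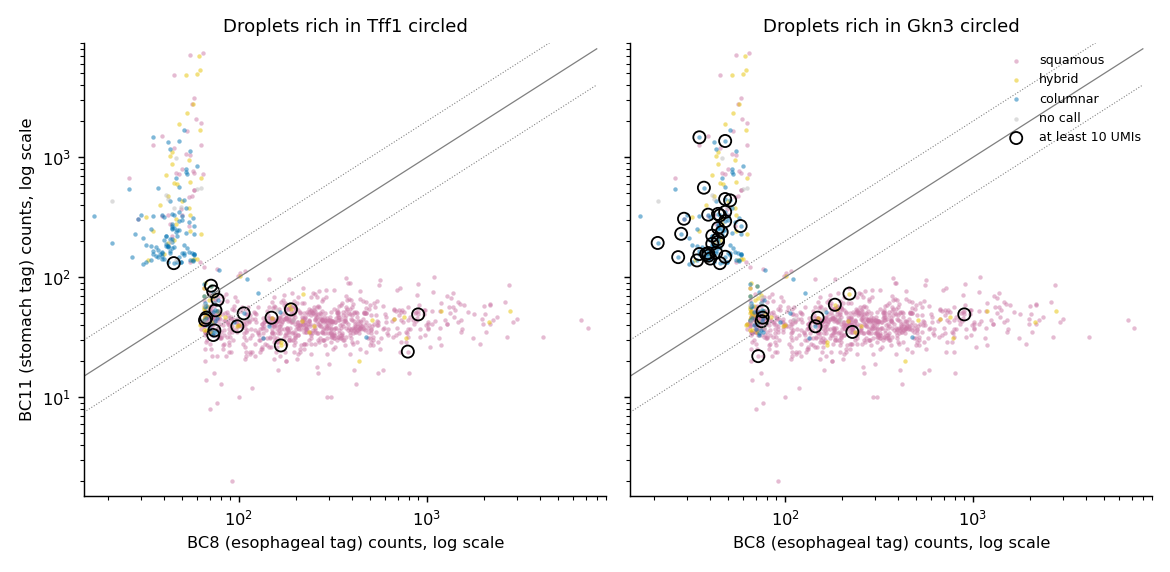
BC8 counts (horizontal, log scale) against BC11 counts (vertical, log scale) of every droplet, coloured by keratin call, with droplets of at least 10 Tff1 UMIs (left) or Gkn3 UMIs (right) circled. The solid line marks equal counts and dotted lines a ratio of 2; Tff1-rich droplets gather at the low corner of the esophageal tag, with a median of 77 BC8 and 46 BC11 counts in 15 droplets, and 30 of 40 Gkn3-rich droplets lie in the stomach arm.

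Within the esophageal tag, Tff1-rich and other columnar droplets were also compared in further gastric genes. More pit cell genes were higher than lower in the rich droplets, but not all moved the same way. Compared were 7 Tff1-rich and 14 other columnar droplets with at least 20000 UMIs, of median depth 59204 and 62480.5, in which 4.65% of 3937 genes were at least 2 times higher and 5.66% at least 2 times lower in the rich ones. These droplets were chosen from the same counts, so the values are a description. Mucl3, a mucin-like gene listed with pit cell markers, stood at 359 CPM in the rich and 2.66 CPM in the other droplets, and it was found in 5 of 7 and 3 of 14. Agr2, a disulfide isomerase of the secretory pathway that folds mucins, stood at 369 and 12.4 CPM and was found in 7 of 7 and 5 of 14. Ctse, an aspartic protease of surface mucous cells, stood at 177 and 31.9 CPM. Mucl3 and Ctse were the 2 of 7 measured pit cell genes that were at least 2 times higher, and 0 were at least 2 times lower. The median log2 ratio of the 7 was 0.79, beside 0.05 over all genes. Anxa10 (374 and 200.2 CPM, ratio 1.87, 1.51 to 2.31) and Sult1c2 (147 and 85.1 CPM, 1.73, 1.23 to 2.42) were also higher. Without the droplet highest in each, their ratios were 1.58 and 1.14. Psca (105 and 183 CPM, ratio 0.571) and Muc1 (346 and 566 CPM, 0.612) were lower in the rich droplets, and Tspan8 had a ratio of 0.997. Pigr, the transporter of polymeric immunoglobulin, ran the other way, with 12.5 CPM in the rich and 527 CPM in the other droplets. It was found in 3 of 7 and 14 of 14. Krt7 stood at 349 and 1167 CPM, and Wfdc2, a secreted protease inhibitor, at 1847 and 4088 CPM. Without the droplet highest in the gene, Mucl3 remained 99.5 times and Agr2 20.9 times higher and Ctse 3.32 times higher. The ratio of Aqp5, a water channel, rested mainly on Tff2-1 (224 UMIs) and Tff1-14 (122 UMIs), and it fell from 3.54 to 1.68 without Tff2-1. The median Aqp5 level per droplet was 85.7 CPM in the rich and 108 CPM in the other droplets.

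Tff2, the trefoil factor of mucous neck cells and of Brunner's glands, rested mainly on a single droplet. Tff2-1, columnar by its keratins with 71 BC8 and 85 BC11 counts, held 442 of the 738 Tff2 UMIs (59.9%) beside its 418 of Tff1. It also held 51 UMIs of Agr2, 224 of Aqp5 and 20 of Spdef, a transcription factor of mucous secretory cells, and these were 42.6% of all Spdef UMIs in the matrix. It held 20 UMIs of the chloride channel Cftr and 16 of the zymogen Pgc, but 3 of the neck mucin Muc6 and 0 of Muc5ac. The next droplets held 67 Tff2 UMIs (Gkn3-1, hybrid, 126929 UMIs), 39 (Tff2-3, squamous, 115000 UMIs), 27 (Tff2-4, squamous, 8323 UMIs), 22 (Gkn3-4, columnar, stomach tag, 25094 UMIs) and 13 (Tff1-1). The 22 UMIs of Gkn3-4 were the highest value under the stomach tag. Tff2-4 had a squamous keratin profile, with 257 UMIs of the squamous keratins and 5 of Krt8 and Krt18, and an esophageal tag that was clear at 791 BC8 to 24 BC11 counts. It held 78 UMIs of Agr2 as well as 11 of Tff1. Of the Tff2 UMIs, 78.6% lay outside the limits the study states for tissue cells (over 100 genes and under 8500, up to 80000 UMIs and up to 20% mitochondrial UMIs), against 30.5% for Tff1 and 76.4% for Gkn3. The paper does not state these limits for organoids. The droplets inside them, 765 of the esophageal and 90 of the stomach tag, equal its numbers of organoid cells after splitting by tag. The paper then excluded wrongly tagged and mixed cells, so the set it clustered was smaller. Within those limits the log2 ratio of stomach over esophagus was 0.90 for Tff2, the reverse of the -2.16 over all droplets, and -3.12 for Tff1.

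Tff3, the goblet cell trefoil factor, was nearly undetected, with 6 UMIs in 5 droplets. All 6 were under the esophageal tag, 4 of them in columnar droplets, and 2 were in Tff1-2. The 0 UMIs of the stomach tag allow up to 0.373 CPM (3 counts over the tag).

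The gastrokines of pit cells were carried mainly by a droplet of 1184 UMIs. In the mouse genome (GRCm38, GENCODE M21 positions) the trefoil factors lie side by side on the minus strand of chromosome 17, within 39972 bases. Tff3 is at chr17:31125306-31129646, Tff2 at chr17:31141049-31144282 and Tff1 at chr17:31161395-31165277. The gastrokines lie within 43286 bases of chromosome 6, Gkn1 at chr6:87345650-87350942 and Gkn3 at chr6:87383256-87388935 on the minus strand and Gkn2 between them at chr6:87373357-87379497 on the plus strand. The droplet Gkn1-1 held 85 of the 171 Gkn1 UMIs (49.7%) and 64 of the 129 Gkn2 UMIs (49.6%), beside 97 of Tff1 and 0 of Gkn3. The 6 genes made up 247 of its UMIs, 20.9%. It held 23 UMIs of Psca and 0 of Muc5ac. Psca is listed with pit cells, but it stood at 1333 CPM in squamous esophageal-tag and 548 CPM in columnar stomach-tag droplets. The droplet Gkn1-1 was shallow and its keratins few. It had the esophageal tag with 98 BC8 and 39 BC11 counts, 4.98% mitochondrial UMIs and 5 keratin UMIs, just enough for its hybrid call (2 squamous, 3 columnar). A second shallow droplet, Gkn1-2, held 61 Tff1, 10 Gkn1, 8 Gkn2 and 1 Gkn3 UMIs among 799, with tag counts of 66 and 44 and a squamous call from 6 squamous keratin UMIs and 1 of Krt18. In both droplets Tff1, Gkn1 and Gkn2 stood together at 10013 CPM or more (81926, 71791 and 54054 CPM in the first, 76345, 12516 and 10013 in the second). The deep Tff1 droplets held little or no Gkn1 and Gkn2. Tff1-1, Tff1-2, Tff2-1 and Tff1-5 held 0 UMIs of Gkn1 and 0 of Gkn2, and Tff1-3 held 2 of each. Of Gkn3, Tff1-3 held 18 UMIs and Tff2-1 held 4.

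Without Gkn1-1, the log2 ratio of stomach over esophagus moved from -1.35 to -0.16 for Gkn1 and from -1.16 to 0.07 for Gkn2. Among columnar stomach-tag droplets, 7 of 100 had a Gkn1 UMI (16 UMIs in all) and 7 of 100 a Gkn2 UMI (11 UMIs). The highest single values were 7 and 3. Squamous esophageal-tag droplets had a Gkn1 UMI in 4.33% (3.05 to 5.94) and a Gkn2 UMI in 2.40% (1.47 to 3.69), and the intervals of the columnar stomach shares, 2.86 to 13.9% for both genes, overlapped these. Median depths were 68776 UMIs in the columnar stomach and 16309 in the squamous esophageal droplets. When droplets were thinned to 2000 UMIs, which left out the shallower ones and kept 100 of 100 columnar stomach-tag and 677 of 832 squamous esophageal-tag droplets, the expected shares were 0.489% and 0.744% for Gkn1 and 0.482% and 0.528% for Gkn2. Thinning assumes counts that rise with depth. Low Tff1 counts in squamous esophageal-tag droplets hardly did, with 0.611 UMIs per droplet under 1000 UMIs of depth and 0.877 over 50000. For Gkn1 and Gkn2 this was not examined, so the thinned shares cannot say whether detection differed at equal depth. Of the 16 Gkn1 UMIs 7 were in Gkn3-8, whose stomach tag was clear at 267 BC11 and 58 BC8 counts. Gkn3-8 held 0 UMIs of Gkn2 and 180 of Gkn3.

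In the shallow droplets Gkn1-1 and Gkn1-2, Gkn1 and Gkn2 were found together, with 0 and 1 UMI of their neighbour Gkn3. In Gkn3-8, Gkn1 stood with Gkn3 instead. The start regions of the gastrokine genes are printed because of these droplets. Each is the 250 bases before the RefSeq start (GRCm38.p6), 5′ to 3′ on the gene's strand and without the bases that GENCODE places inside the gene. Capitals mark GATAA, the core recognised by GATA factors, its complement TTATC, and TATAAA, the core of the TATA box.
Gkn1, minus strand, chr6:87350943-87351165: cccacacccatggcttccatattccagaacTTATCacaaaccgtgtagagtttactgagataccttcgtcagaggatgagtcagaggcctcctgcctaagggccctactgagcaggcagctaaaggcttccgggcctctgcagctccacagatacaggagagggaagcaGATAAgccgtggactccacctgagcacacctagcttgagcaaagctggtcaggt
Gkn2, plus strand, chr6:87373115-87373356: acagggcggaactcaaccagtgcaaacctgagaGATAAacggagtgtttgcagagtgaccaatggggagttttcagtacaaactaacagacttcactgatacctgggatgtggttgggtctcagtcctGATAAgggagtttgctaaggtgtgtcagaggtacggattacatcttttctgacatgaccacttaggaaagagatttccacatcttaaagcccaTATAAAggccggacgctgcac
Gkn3, minus strand, chr6:87388936-87389185: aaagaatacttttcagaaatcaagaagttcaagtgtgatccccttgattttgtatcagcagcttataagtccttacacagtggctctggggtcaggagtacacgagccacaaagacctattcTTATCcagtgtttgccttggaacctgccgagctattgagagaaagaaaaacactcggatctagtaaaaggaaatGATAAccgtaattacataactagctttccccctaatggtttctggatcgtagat
Each window held 2 GATAA matches on either strand, 81 and 220 bases before the start of Gkn1, 122 and 217 before Gkn2 and 54 and 128 before Gkn3. Of 32851 windows of this length, 22.6% held at least 1 such match and 4.28% at least 2. TATAAA was found in the Gkn2 window, 29 bases before the start, and 12.4% of windows held it on either strand. The matches did not set Gkn3 apart from its neighbours, and they are letters in a window, not sites of binding. Gata4 stood at 10.6 CPM under the stomach and 1.64 CPM under the esophageal tag.

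Gkn3, the gastrokine of mouse neck cells, had the most rich droplets of the members, 40, and was the one with a higher level under the stomach tag. Of the 100 columnar stomach-tag droplets 68 had a Gkn3 UMI and 30 were rich in it, with 10 to 719 UMIs (median 62.5) at 98.6 to 19407 CPM (median 808). In all 30, as in all 100 columnar stomach-tag droplets, BC11 was at least 2 times BC8 (BC11 131 to 1465 and BC8 21 to 58 in the 30). Their order began with Gkn3-2 (719 UMIs of 193683), Gkn3-4 (487 of 25094), Gkn3-6 (270 of 136953) and Gkn3-7 (200 of 59627). Per UMI sequenced Gkn3-4 stood apart at 19407 CPM, against 3712 CPM in Gkn3-2. It was also the only one of these droplets with Muc6 (12 UMIs), and it held 262 UMIs of Pgc and 105 of Agr2.

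The largest single value of any member was under the esophageal tag. Gkn3-1 held 2874 Gkn3 UMIs of 126929, 37.0% of all Gkn3 in the matrix, with 67 of Tff2 and 41 of Tff1. Its tag counts were 149 BC8 and 46 BC11. It was hybrid by its keratins, with 263 UMIs of Krt8 and Krt18 and 230 of the squamous keratins, of which 202 were Krt6a. It also held 367 UMIs of Pgc, 22 of Muc6, 184 of Agr2 and 448 of Psca, genes listed with chief, neck and pit cells. Gkn3-3 held 654 UMIs of 107451, hybrid as well, with 184 BC8 and 59 BC11 counts. Tff2-3 held 378 of 115000 and had the highest BC8 count of the 53 rich droplets, with 898 BC8 and 49 BC11 counts. Its squamous keratins came to 183 UMIs (88 of Krt5) and Krt8 with Krt18 to 26, and it held 14 UMIs of Muc6, 43 of Tff1 and 39 of Tff2. Over the 10 Gkn3-rich droplets of the esophageal tag, 4 were hybrid (17 to 2874 UMIs), 3 squamous (12 to 378) and 3 columnar (12 to 117). Many rich droplets were very deep, with 22 of the 40 over 80000 UMIs. Among columnar stomach-tag droplets 17 of the 30 rich ones were, against 41 of all 100, and a limit set in raw UMIs favours deep droplets. Whether the deep hybrid and squamous droplets held more than 1 cell was not tested.

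Gkn3-rich and other columnar droplets of the stomach tag were set side by side at a depth of at least 20000 UMIs, with 30 rich and 53 other droplets of median depth 88809.5 and 72380. In this description 1.27% of 8598 genes were at least 2 times higher and 2.64% at least 2 times lower in the rich droplets. Aqp5, listed with neck cells, stood at 296 CPM in the rich and 99.3 CPM in the other droplets (2.98 times, 2.66 to 3.34) and was found in 25 of 30 and 39 of 53, and without the droplet highest in it the ratio was 2.70. Hnf4a, a transcription factor of gut epithelium, stood at 13.5 and 4.06 CPM and was found in 17 of 30 and 10 of 53. Sult1c2, a sulfotransferase listed with pit cells, stood at 82.1 and 39.7 CPM. Agr2 (43.7 and 3.84 CPM), Pgc (89.5 and 0.427 CPM) and Anxa10 (51.1 and 17.9 CPM) rested on 1 droplet each, without which their ratios fell from 11.4 to 2.21, from 209 to 3.18 and from 2.85 to 1.11. In summed counts 7 of the 10 cell cycle genes were at least 2 times lower in the rich droplets, with a median log2 ratio of -1.23 beside -0.03 over all genes, but this rested on few droplets. Without the deepest of the other droplets (324846 UMIs), an alternative chosen after seeing the data, 3 of the 10 were (median -0.79). The median CPM per droplet was higher in the rich droplets for 5 genes, lower for 1 and 0 in both for 4. Mki67, the proliferation marker, stood at 37.0 and 86.5 CPM (ratio 0.428, and 0.620 without that droplet) and Birc5, a mitotic regulator, at 21.5 and 116 CPM (0.185 and 0.247). Mki67 was detected in 14 of 30 rich and 24 of 53 other droplets and Birc5 in 10 and 23. The stem cell receptor Lgr5 (46.1 and 38.0 CPM, ratio 1.21, 0.963 to 1.52) and the surface mucin Muc1 (771 and 778 CPM, ratio 0.991, 0.940 to 1.04) had intervals that included 1.

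Few droplets were rich in Tff1 (16 of 1099, 1.46%) or in Gkn3 (40 of 1099, 3.64%), and 3 were rich in both. Of the 40 Gkn3-rich droplets 35 had at most 2 Tff1 UMIs, and of the 16 Tff1-rich droplets 12 had at most 2 Gkn3 UMIs. Low counts were the rule in all droplets, since 523 of 1099 had a Tff1 UMI (341 exactly 1) and 285 a Gkn3 UMI. No avoidance between the genes is therefore read from these counts. The 3 droplets rich in both were Gkn3-1, Tff2-3 and Tff1-3, with 41, 43 and 801 Tff1 and 2874, 378 and 18 Gkn3 UMIs. Tff2 overlapped with both, since 5 of its 6 rich droplets were rich in Tff1 and 3 were rich in Gkn3. Gkn1 and Gkn2 shared 1 rich droplet. Over the 100 columnar stomach-tag droplets with at least 2000 UMIs, Pearson's r of log2(CPM + 1) was 0.43 for Gkn1 with Gkn2, -0.12 for Tff1 with Gkn3 and between -0.07 and 0.17 for the other pairs of the 5 members. Over 130 columnar droplets of both tags it was 0.35 for Tff1 with Tff2, 0.36 for Gkn1 with Gkn2 and -0.20 for Tff1 with Gkn3. These values describe droplets of 1 run that differ in depth, and most are near 0.

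**Figure D4:**
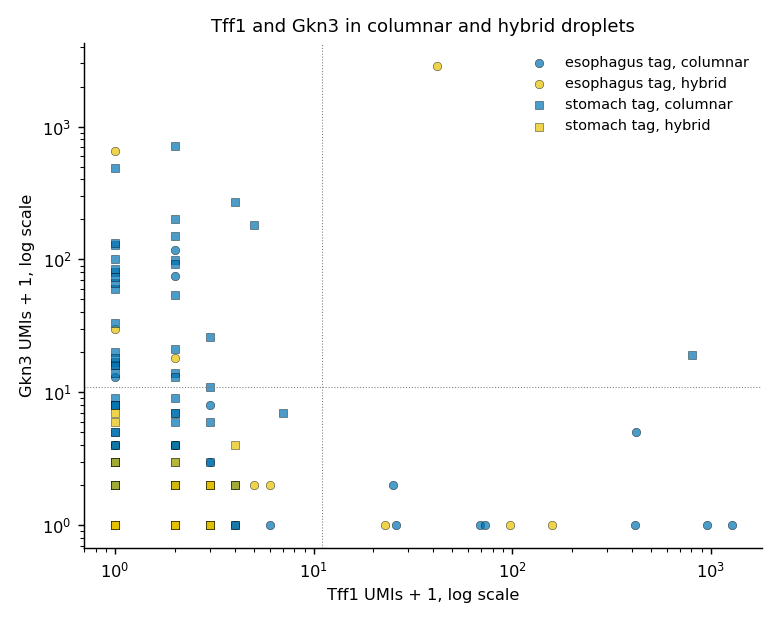
Tff1 against Gkn3 UMIs per droplet (each plus 1, log axes) in columnar and hybrid droplets, circles for the esophageal and squares for the stomach tag, with dotted lines at 10 UMIs. Droplets lie along the 2 axes, and the upper right corner holds 2 of them, 1 hybrid of the esophageal tag and 1 columnar of the stomach tag; the droplet rich in both with a squamous call is not drawn.

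Below the rich droplets, a low count of Tff1 was present in every class. Among droplets not rich in it, Tff1 averaged 0.673 UMIs in squamous esophageal-tag droplets, 0.760 in columnar esophageal-tag, 0.788 in columnar stomach-tag and 0.600 in squamous stomach-tag droplets. In squamous esophageal-tag droplets it was 0.611 UMIs per droplet (0.444 to 0.820) under 1000 UMIs of depth and 0.877 (0.739 to 1.03) over 50000. Krt18 rose over the same range from 0.466 to 5.88 UMIs per droplet. The level of Tff1 in CPM fell over these depths from 808 to 13.4. The share of squamous droplets with a Tff1 UMI, 47.1% (43.7 to 50.6), overlapped that of columnar stomach-tag droplets, 50 of 100 (39.8 to 60.2%). Thinned to 2000 UMIs, over the same 677 and 100 droplets, these shares were 10.7% and 4.09%. Thinning assumes counts that rise with depth, which these low counts of Tff1 hardly did, so no order is read from the thinned shares. Of the 523 droplets with a Tff1 UMI 341 had exactly 1, and the source of these low counts was not tested. Tff2 averaged 0.0952 UMIs in squamous esophageal-tag and 0.222 in columnar stomach-tag droplets that were not rich. The share with a Tff2 UMI was 8.65% (6.83 to 10.8) in all squamous esophageal-tag and 21.0% (13.5 to 30.3) in all columnar stomach-tag droplets, and thinned to 2000 UMIs these shares were 1.61% and 1.85%. Gkn3 differed more between these classes. It averaged 0.226 UMIs in squamous esophageal-tag droplets that were not rich, 0.286 in squamous stomach-tag droplets and 1.63 in columnar stomach-tag droplets, and the share with a UMI was 18.9% (16.3 to 21.7) in all squamous esophageal-tag against 68.0% (57.9 to 77.0) in all columnar stomach-tag droplets. Thinned to 2000 UMIs, these shares were 3.53% and 22.9%.

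**Figure D5:**
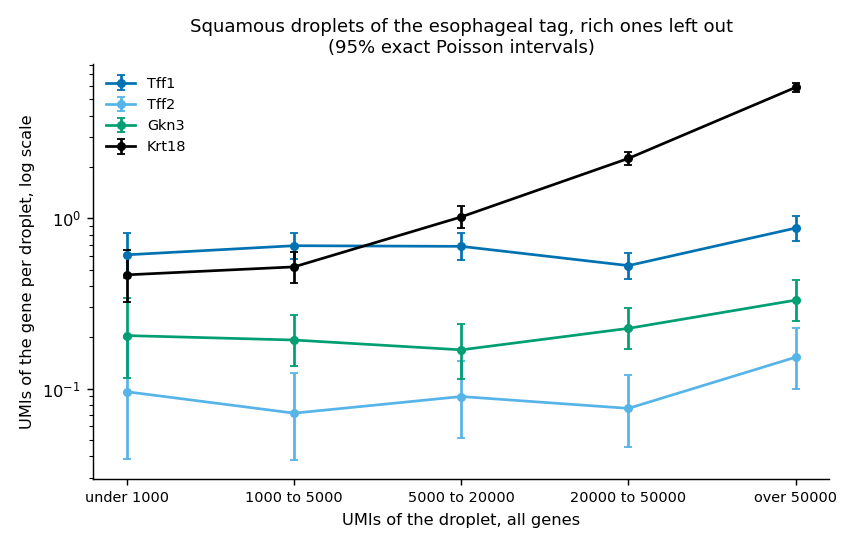
UMIs per droplet of Tff1, Tff2, Gkn3 and Krt18 (log axis) in squamous esophageal-tag droplets that are not rich in the gene, by total UMIs of the droplet, with exact 95% Poisson intervals. Tff1 stays between 0.528 and 0.877 UMIs per droplet in the 5 depth classes while Krt18 rises from 0.466 to 5.88.

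The products with which trefoil factors act were scarce. Muc5ac, the pit cell mucin with which Tff1 is packed, had 1 UMI under the stomach and 2 under the esophageal tag, and 0 in the 53 rich droplets. With so few UMIs in the matrix, this 0 cannot say whether Muc5ac differed where Tff1 was high. Muc6, the neck cell mucin bound by Tff2, had 13 and 44 UMIs, of which 22, 14 and 12 lay in Gkn3-1, Tff2-3 and Gkn3-4. These same 3 droplets were rich in both Gkn3 and Tff2. Muc2, the goblet cell mucin, had 3 and 4 UMIs. Fcgbp, the Fc-globulin binding protein that pairs with Tff3, had 46 and 6 (5.72 and 0.252 CPM). Among proposed receptors, Lingo2 and Lingo3 had 0 UMIs, Cxcr4 had 0 and 1, and Ackr3 had 7 and 6. Egfr, through which trefoil factors are thought to act in part, stood at 6.96 CPM under the stomach and 25.2 CPM under the esophageal tag.

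Other gastric cell type lists gave a mixed picture beside the members, whose median log2 ratio of stomach over esophagus was -1.16 and that over all genes -0.01. Of 7 measured pit cell genes 4 were at least 2 times higher under the stomach tag and 2 under the esophageal tag. Muc1 stood at 779 and 62.0 CPM and Tspan8 at 746 and 87.6 CPM, whereas Psca stood at 539.9 and 1235 CPM. Of 8 neck cell genes 4 were at least 2 times higher under the stomach tag and 1 under the esophageal tag, among them Pigr (838 and 72.2 CPM). Of 5 chief cell genes 1 was at least 2 times higher under each tag, with Pgc at 33.7 and 17.3 CPM, 53.7% of it in Gkn3-1. Clps, the colipase of pancreatic lipase, stood at 0.746 and 14.0 CPM, with 224 of its 340 UMIs in Tff1-2. Of 7 goblet cell genes 3 were higher under the stomach tag and 2 under the esophageal tag, and some lay mainly in single droplets, with 195 of the Spink4 UMIs (56.2%) in Tff1-14 and 75.7% of Clca1 in 1 stomach-tag droplet. Stem and isthmus genes were higher under the stomach tag for 4 of 10 (Lgr5 39.5 and 3.62 CPM, Axin2 45.9 and 3.41 CPM), and secretory regulators for 8 of 15 (Xbp1 402 and 85.7 CPM). The columnar list, with 10 of 11 genes higher under the stomach tag, and the squamous list, with 13 of 13 higher under the esophageal tag, followed the tissue labels. Only 3 of 7 parietal, 3 of 6 tuft and 2 of 8 immune genes in the matrix had enough UMIs to be measured. Of these, 3 parietal, 2 tuft and 1 immune gene were higher under the stomach tag. The parietal genes Atp4b, Kcne2, Slc26a7 and Cckbr had 0 UMIs, and the immune gene, Lyz2, had 96.9% of its UMIs in 1 droplet. Cell cycle genes were higher under the esophageal tag for 6 of 10. Fibroblast, endothelial and endocrine genes did not reach 10 UMIs.

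Across 128 stomach-tag droplets with at least 2000 UMIs, genes most like each member were ranked by Pearson's r of log2(CPM + 1) among 6462 genes. Gkn3 had the closest partners, Ptgr1 (0.45), a reductase of prostaglandins, Kcne3 (0.45), a potassium channel subunit, the cytokine Il18 (0.43), Slc35g1 (0.42) and Tm9sf4 (0.42), and in the 100 columnar droplets these stood between 0.41 and 0.50. For Tff2 they were Agr2 (0.31), Itga6, Aars and Phactr4 (0.25), and for Gkn1 Aurka (0.27), Timm22, Id3, Cby1 and Rnf213 (0.25). For Tff1 they were Krt13 (0.32), Krt14 (0.31), Krt6a and Sprr1a (0.23), and the first 3, which are squamous keratins, fell to 0.17, 0.16 and 0.08 in columnar droplets alone. Except for those of Gkn3 these values are weak in sparse counts. Gkn1 was found in 9 of the 128 droplets. Gkn2 and Tff3 had too few stomach-tag UMIs to be ranked.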

How the data were processed

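Each tissue was 1 sample, and groups came from the labels. Files deposited by the authors hold raw UMI counts of every gene in each barcode, sample tag counts, and the sample to which deMULTIplex assigned each barcode. Per the labels, Cell Ranger 3.1.0 and genome build mm10 were used. For doublets, the authors' demultiplexing was relied on without a further caller, and hybrids were kept and named. All 1099 barcodes entered. UMIs were summed per class and divided by its total to give CPM. Sums have Garwood intervals, ratios conditional binomial intervals and shares Clopper-Pearson intervals, all exact, at 95%, and checked on simulated data. A count of 0 allows 3 counts. The 6 members are named, the 5 genes most like each and up to 4 genes per list by their log2 ratio, and 1 gene under this rule is not reported here. Genes leading single droplets were picked with their values in view. Alternatives were the study's limits, tags read from raw counts, keratin calls in place of tags, equal weight per droplet, other minimums and leaving out the highest droplet. The members and lists were chosen with earlier results of these data known. Python 3.11.15, numpy 2.4.6, scipy 1.17.1 and pandas 2.3.3 were used.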

Additional observations from a re-analysis of the deposited data

How the results depend on the processing

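Values below are log2 ratios of stomach over esophagus, with the value over all droplets first. Tff1 (-0.63) was -3.12 within the limits of the study, -0.02 with tags read from the raw counts, 1.83 for columnar stomach against squamous esophageal droplets, -3.37 without its highest stomach droplet and -0.97 with equal weight per droplet. Tff2 (-2.16) was 0.90, -0.59, -0.28, -2.95 and -0.11 in the same order. Gkn1 (-1.35) was -0.20 by keratin call and -3.53 with equal weight, and Gkn2 (-1.16) was -0.05 and -2.87. Gkn3 (1.16) was 5.29 within the limits, 3.93 by keratin call, 0.85 without its highest stomach droplet and 2.19 with equal weight. A pair of alternatives was chosen after seeing the data. Without the highest esophageal droplet the values were -0.13, -0.67, -0.16, 0.07 and 2.68 for Tff1, Tff2, Gkn1, Gkn2 and Gkn3, and for columnar over squamous droplets of either tag they were 3.76, 2.99, -0.43, -0.17 and 3.74. The sign thus changed for Tff1 and Tff2, and for Gkn2 in 1 setting, and the value of Gkn3 was above 0 in each setting listed, of which columnar over squamous mixes the tags. The 23 rich droplets of the esophageal tag became 14 within the limits, 14 by raw tags, 5 by keratin call and 14 at 50 UMIs or more. The 30 of the stomach tag became 13 within the limits, 18 at 50 UMIs or more and 17 with 500 CPM also required. With genes of at least 50 UMIs, the count of receptor genes higher in the stomach went from 1 to 0. The cause of these moves was not tested. No paired analysis was possible because the labels give no replicate numbers and each group is 1 sample. Depth limits values near 1 UMI per droplet.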

Other observations

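The droplets richest in the members also held genes of other secretory programmes, named here after their values were seen. Gkn3-1 held 315 UMIs of the antimicrobial lectin Reg3g (72.4% of all in the matrix), 43 of Reg1 (84.3%), 36 of Reg3b (76.6%) and 743 of the calprotectin subunit S100a9 (46.7%). Tff2-1 held 77 UMIs of Reg3g, 1115 of the secreted phosphoprotein Spp1 and 15 of Creb3l4 (28.8%). Tff1-6, a hybrid droplet with 158 Tff1 UMIs, held 27 UMIs of the lectin Itln1 (64.3%) and 80 of Agr2. Tff1-1 held 11 UMIs of the sulfotransferase Sult1d1 (57.9%), and Tff1-3 held 14 of the transcription factor Pdx1 (16.7%), a marker of the distal stomach and duodenum, and 12 of Apoc2 (80.0%). Tff2-3, with its squamous keratin call, held 100 UMIs of the ribonuclease Rnase4 (16.4%) and 11 of Ern2 (14.5%), a stress sensor of mucous cells. Outside the rich droplets, Lyz2, a lysozyme gene of the immune list, had 157 of its 162 UMIs in 1 stomach-tag droplet. That droplet was columnar by its keratins.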
